A study of Mus musculus with 43 samples.

Results

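The 8 genes Kcnj16, Pyy, Guca2a, Clca1, Mccc1os, Mrgprb3, Il12rb2 and Akr1d1 were followed through mouse back skin exposed to ultraviolet B light (UVB). They were picked, out of 23256 genes in the table, for a very large change after UVB in NZM mice: 7 of them for a low level after acute UVB and Akr1d1 for a high level after chronic UVB. The members were thus chosen by their normalised read counts in the NZM groups, acute or chronic UVB set against no UVB, and those values are given only as a description. All 8 genes were among the 19170 genes that passed the filter on low values, a normalised read count of at least 10 in at least 4 libraries.

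The samples were 43 poly-A RNA libraries of back skin. The mice were all female, were 10 to 13 weeks old and belonged to 3 strains, labelled iNZM, NZM (NZM2328 in the title of the study) and WT. The labels define neither iNZM nor the strain behind WT. Within each strain, chronic UVB was 100 mJ/cm2 daily for 5 days, acute UVB was 300 mJ/cm2 given 1 time, and the remaining mice received no UVB. Skin was taken 24 h after the last dose. Each of the 9 groups held 5 libraries, apart from iNZM without UVB and WT without UVB, which held 4 each. The labels do not state that every library came from a separate animal, so p-values measure the spread between these libraries. Depth ran between 18.49 and 37.76 M reads per library, and a value below is a read count divided by the size factor of its library, called a normalised read count. In whole tissue, fewer cells of a type and less RNA per cell cannot be told apart.

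Most of these genes are known from organs other than skin. Pyy encodes peptide YY, a hormone of enteroendocrine cells of the gut that acts on receptors of the neuropeptide Y family. Guca2a encodes guanylin, a gut peptide that activates the guanylyl cyclase Gucy2c. Clca1 encodes a protein secreted by goblet cells that cleaves itself and modulates chloride conductance. Kcnj16 encodes the inward rectifier potassium channel subunit Kir5.1, which forms channels with the products of Kcnj10 or Kcnj15 in kidney and brain. Mrgprb3 belongs to the Mas-related G protein-coupled receptors, a family best known in sensory neurons and mast cells. Il12rb2 encodes the signalling chain of the interleukin-12 receptor, which on T and NK cells acts through Stat4. Mccc1os is a non-coding RNA transcribed antisense to Mccc1, whose product belongs to an enzyme of leucine breakdown. Akr1d1 encodes an aldo-keto reductase that reduces the steroid ring in bile acid synthesis and steroid hormone breakdown in liver.

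The genes lie on 5 chromosomes of the GRCm38 assembly (GENCODE vM21). Pyy occupies chr11:102106676-102107832 on the minus strand and Kcnj16 chr11:110968033-111027968 on the plus strand. Guca2a occupies chr4:119637704-119639471 (plus), Clca1 chr3:145003817-145032776 (minus) and Mrgprb3 chr7:48642803-48643811 (minus). Il12rb2 occupies chr6:67291318-67376188 (minus) and Akr1d1 chr6:37530173-37568815 (plus). Mccc1os occupies chr3:35999833-36025106 on the plus strand, where it overlaps 846 bases of Mccc1 and 17863 bases of Ccdc144b on the opposite strand. No source used here states whether reads were counted by strand, so reads of Mccc1os and of its opposite-strand neighbours cannot be told apart. Il12rb2 shares 6419 bases with Serbp1 on the opposite strand, and the span of Akr1d1 holds the pseudogene Gm7463 on the same strand.

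The 250 bases before the RefSeq transcription start (GRCm38.p6) were available for 6 of the 8 genes. They are printed for the gene with the largest loss in iNZM skin (Pyy), the other gut peptide (Guca2a), the non-coding RNA (Mccc1os) and the only gene of the 8 that was gained (Akr1d1). Capitals mark matches, on either strand, to TATAAA (the TATA box core), to TGANTCA (the AP-1 core), to CACGTG (an E-box), to GATAAG (the GATA core) and to GGG and CC separated by any 5 bases (the NF-kappa B core, called kappa B below). The windows run 5′ to 3′ along each gene's strand and cover chr11:102107833-102108082 (minus) for Pyy, chr4:119637482-119637731 (plus) for Guca2a, chr3:35999663-35999912 (plus) for Mccc1os and chr6:37529923-37530172 (plus) for Akr1d1. The Guca2a and Mccc1os windows end inside the GENCODE gene, since RefSeq places their start further downstream, and the Mccc1os window lies in an intron of Mccc1 on the other strand.
Pyy: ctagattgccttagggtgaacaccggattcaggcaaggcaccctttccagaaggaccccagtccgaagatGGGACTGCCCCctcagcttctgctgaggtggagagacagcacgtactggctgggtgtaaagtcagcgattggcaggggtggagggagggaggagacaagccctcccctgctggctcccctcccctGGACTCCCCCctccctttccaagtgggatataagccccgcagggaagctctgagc
Guca2a: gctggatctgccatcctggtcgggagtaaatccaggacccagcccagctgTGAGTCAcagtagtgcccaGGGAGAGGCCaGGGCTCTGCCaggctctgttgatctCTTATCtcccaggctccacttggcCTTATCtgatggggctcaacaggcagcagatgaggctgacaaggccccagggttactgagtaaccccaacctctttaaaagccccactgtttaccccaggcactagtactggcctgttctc
Mccc1os: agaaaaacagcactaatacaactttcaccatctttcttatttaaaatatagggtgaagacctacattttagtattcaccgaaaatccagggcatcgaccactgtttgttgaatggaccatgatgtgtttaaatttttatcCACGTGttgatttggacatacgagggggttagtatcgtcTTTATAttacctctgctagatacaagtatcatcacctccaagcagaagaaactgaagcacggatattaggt
Akr1d1: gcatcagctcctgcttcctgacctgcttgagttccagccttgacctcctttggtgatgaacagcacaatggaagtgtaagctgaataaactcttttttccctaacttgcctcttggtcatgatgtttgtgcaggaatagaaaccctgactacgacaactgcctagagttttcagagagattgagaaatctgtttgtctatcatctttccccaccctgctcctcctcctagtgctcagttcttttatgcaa

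Counted back from the start, whose preceding base is -1, the Guca2a window held TGAGTCA at -200, GGGAGAGGCC at -181, GGGCTCTGCC at -170 and CTTATC at -145 and -121. In Mccc1os, CACGTG began at -110 and TTTATA at -71. In Pyy, matches to the kappa B letters began at -180, -179 and -55, and the pair at -180 and -179 is 1 overlapping site read on both strands. The Akr1d1 window held none of the 5 motifs. Among 32851 RefSeq windows of the same length, 45.8% held the kappa B letters, 12.4% held TATAAA, 6.75% held TGANTCA, 6.55% held GATAAG and 6.02% held CACGTG, so a match describes the letters only.

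In iNZM skin, whose values the choice did not use, all 7 genes lost in NZM fell after acute UVB and again after chronic UVB in the fit across all genes (limma, Benjamini-Hochberg adjusted p under 0.05). Of all 19170 genes, 12.4% were lower after acute UVB and 15.7% after chronic UVB in iNZM. In WT skin 5 of the 7 fell after acute UVB (Kcnj16, Pyy, Clca1, Mrgprb3 and Il12rb2) and the same 5 fell after chronic UVB, against a background of 11.3% of all genes lower after acute and 16.8% after chronic UVB. Guca2a and Mccc1os did not pass the test in WT. Akr1d1 rose after chronic UVB in iNZM and in WT, where 13.1% and 18.4% of all genes were higher. It did not pass the test after acute UVB in either strain, where 12.8% of all genes in iNZM and 10.4% in WT were higher. For each of the 7 genes in iNZM, exposed libraries did not overlap unexposed ones under either regimen. In WT 6 of the 7 did not overlap after acute UVB and 5 of the 7 after chronic UVB, where 11.5% and 15% of all genes were lower without overlap. In iNZM that share was 10.4% after acute and 10.9% after chronic UVB. Akr1d1 after chronic UVB did not overlap the unexposed libraries in iNZM or WT, where 8.23% and 13.9% of all genes were higher without overlap.

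**Figure D1:**
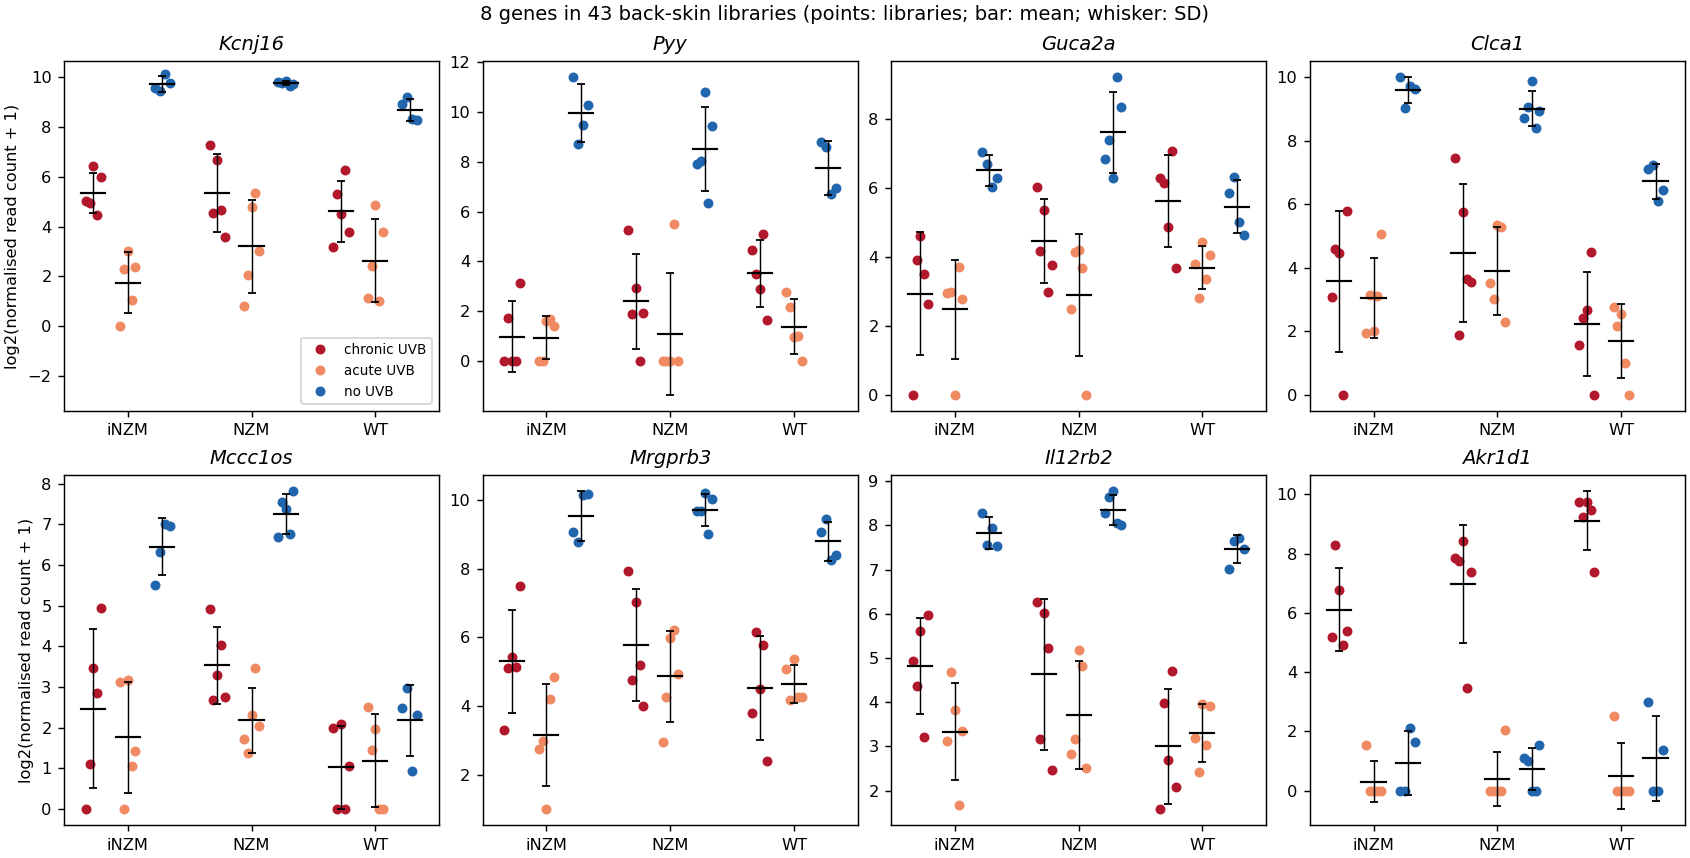
Normalised read counts of the 8 genes in every library, plotted as log2(value + 1), 1 panel per gene. Groups run by strain (iNZM, NZM, WT) and within a strain by chronic, acute and no UVB, each point is 1 library and each bar a group mean. The 7 genes lost in NZM sit low in the iNZM UVB groups, with Pyy at 0 to 7.84 after chronic UVB, and Akr1d1 sits at 10.0 to 852 after chronic UVB and at 6.96 or below in every other library.

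Pyy had the lowest log2 difference of all 19170 genes in 3 of the 4 comparisons of UVB with no UVB in iNZM and WT. In iNZM it had 0, 0, 0, 2.32 and 7.84 normalised reads after chronic UVB, 0, 0, 1.68, 2.02 and 2.20 after acute UVB, and 414, 700.0, 1219 and 2690 without UVB. In WT it had 2.14, 6.53, 10.3, 21.0 and 33.0 after chronic UVB, 0, 0.97, 1.02, 3.47 and 5.84 after acute UVB, and 104, 122, 388 and 436 without UVB. Every unexposed library of either strain stood above every exposed library of the same strain, and the unexposed libraries themselves spread over several-fold.

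The mean of Pyy after UVB, as a percentage of the mean without UVB, was 0.162% after chronic and 0.0939% after acute UVB in iNZM, and 5.55% after chronic and 0.86% after acute UVB in WT. On the log2(value + 1) scale Pyy fell by 8.97 after chronic UVB in iNZM (adjusted p = 3.41e-07, limma) and fell by 9.01 after acute UVB (SE 1.0, adjusted p = 4.55e-08). In WT it fell by 4.24 after chronic UVB (adjusted p = 0.00124) and fell by 6.38 after acute UVB (adjusted p = 8.58e-06). The chronic response was larger in iNZM than in WT by 4.74 ± 1.41 (SE) on the log2 scale, with an adjusted p of 0.045 for the interaction. It was the 1 gene of the 8 called, and 3.35% of all genes passed in that direction and 1.26% in the other. This call was lost, with adjusted p between 0.0509 and 0.105, when 1 of 11 libraries was left out (chronic 23, 24 and 57 and no UVB 37, 39 and 40 of iNZM, chronic 27, 29 and 58 and no UVB 44 and 45 of WT) and under 5 other settings. Neither edgeR nor DESeq2 called Pyy in this interaction. The NZM libraries, which chose the gene, held 0, 2.69, 2.86, 6.68 and 36.9 after chronic UVB, 0 in 4 libraries and 43.8 in the other after acute UVB, and 80.7, 239, 260.0, 687 and 1771 without UVB.

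Guca2a, the other gut peptide of the list, was low in iNZM and NZM after both regimens, and in WT neither regimen passed the test. In iNZM it had 0, 5.23, 10.4, 13.9 and 23.3 normalised reads after chronic UVB, 0, 5.88, 6.75, 6.89 and 12.1 after acute UVB, and 63.5, 77.2, 102 and 129 without UVB. WT skin held 11.8, 28.3, 69.2, 76.8 and 133 after chronic UVB, 6.07, 9.17, 12.9, 15.5 and 20.4 after acute UVB, and 23.8, 31.1, 56.9 and 79.1 without UVB. The WT libraries after chronic UVB lay on both sides of the unexposed ones, with a mean at 134% of that without UVB, while the acute libraries all lay below them at 26.8%.

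Guca2a fell by 3.57 after chronic UVB (adjusted p = 0.00241, limma) and fell by 4.02 after acute UVB (SE 0.83, adjusted p = 0.000483) in iNZM. The WT difference was 0.15 ± 0.83 (SE) after chronic UVB (adjusted p = 0.907) and -1.77 ± 0.83 after acute UVB (adjusted p = 0.132). The WT acute difference passed the test with a fit on only the groups compared (adjusted p = 0.0227) and in DESeq2 on the recovered reads (adjusted p = 0.0398). Set against WT after chronic UVB, iNZM was lower by a log2 difference of -2.68 ± 0.79 (adjusted p = 0.0185), and without iNZM chronic 57 (adjusted p = 0.0787) or WT chronic 29 (adjusted p = 0.0666) the call was lost. The difference between the chronic responses of iNZM and WT was -3.72 ± 1.18 and missed the threshold (adjusted p = 0.0593), although edgeR (adjusted p = 0.0471) and DESeq2 (adjusted p = 0.0111) called it. Between chronic and acute UVB in WT, Guca2a differed by 1.92 (adjusted p = 0.0516), which edgeR (adjusted p = 0.0141) and DESeq2 (adjusted p = 0.00308) called higher. In NZM, Guca2a had 6.94, 12.6, 17.0, 40.1 and 63.4 after chronic UVB, 0, 4.56, 11.9, 16.8 and 17.3 after acute UVB, and 76.3, 112, 165, 325 and 590.0 without UVB.

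Clca1, the secreted goblet cell protein, had 0 to 54.0 normalised reads after chronic UVB, 2.89 to 32.8 after acute UVB and 524 to 1027 without UVB in iNZM. The WT libraries had 0 to 21.6 after chronic UVB, 0 to 5.84 after acute UVB and 67.7 to 149 without UVB. Exposed and unexposed libraries did not overlap in either strain, and the unexposed WT libraries were all lower than the unexposed iNZM ones. Clca1 fell by 6.02 after chronic UVB (adjusted p = 4.01e-05, limma) and fell by 6.54 after acute UVB (adjusted p = 3.66e-06) in iNZM. In WT it fell by 4.49 after chronic UVB (adjusted p = 0.000354) and fell by 5.03 after acute UVB (adjusted p = 0.000106). In NZM the means after UVB were 9.25% (chronic) and 3.65% (acute) of that without UVB.

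Kcnj16 was well expressed in unexposed skin and was lowest after the acute dose. In iNZM it had 20.8, 30.2, 31.2, 61.8 and 84.4 normalised reads after chronic UVB, 0, 1.10, 3.94, 4.20 and 7.07 after acute UVB, and 692, 759, 864 and 1126 without UVB. Levels in WT were 7.98, 12.8, 21.8, 38.3 and 76.3 after chronic UVB, 1.02, 1.17, 4.34, 12.7 and 28.1 after acute UVB, and 313, 322, 490.0 and 582 without UVB. In iNZM the 3 regimens did not overlap at all, while in WT the chronic and acute libraries overlapped.

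Kcnj16 fell by 4.36 after chronic UVB (adjusted p = 0.000199, limma) and fell by 7.97 after acute UVB (SE 0.79, adjusted p = 9.72e-09) in iNZM. In WT it fell by 4.08 after chronic UVB (adjusted p = 0.000141) and fell by 6.05 after acute UVB (adjusted p = 4.1e-07). It was the only one of the 7 lost genes that limma called higher after chronic than after acute UVB, by 3.61 ± 0.74 (SE) in iNZM (adjusted p = 0.00188) and by 1.97 ± 0.74 in WT (adjusted p = 0.0347). Together with Akr1d1 it made 2 of the 8 genes called higher in each strain, with none called lower by limma. Of all genes, 3.81% were higher and 4.45% lower after chronic than after acute UVB in iNZM, and 19.6% were higher and 17.7% lower in WT. The WT call was lost without WT acute 50 (adjusted p = 0.113), 51 (adjusted p = 0.062) or 52 (adjusted p = 0.12), or without WT chronic 27 (adjusted p = 0.0783) or 29 (adjusted p = 0.121), and it was also lost in edgeR (adjusted p = 0.0832), with a pseudocount of 8 (adjusted p = 0.063) and with quantile scaling (adjusted p = 0.0664). A fit on only the groups compared lost both the WT call (adjusted p = 0.091) and the iNZM call (adjusted p = 0.0575). For Mrgprb3, the iNZM difference between chronic and acute UVB of 2.14 missed the threshold (adjusted p = 0.0616), and edgeR (adjusted p = 0.0434) and DESeq2 (adjusted p = 0.0111) called it higher. In NZM the levels were 10.9, 22.4, 24.7, 100.0 and 153 after chronic UVB, 0.76, 3.21, 7.03, 26.7 and 39.2 after acute UVB, and 789, 842, 867, 899 and 920.0 without UVB.

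Mrgprb3, a Mas-related receptor of little-known function, had 8.91 to 180.0 normalised reads after chronic UVB, 1.01 to 27.7 after acute UVB and 435 to 1146 without UVB in iNZM. WT values were 4.28 to 70.6 after chronic UVB, 17.3 to 40.8 after acute UVB and 301 to 696 without UVB. Exposed and unexposed libraries were apart in both strains. Mrgprb3 fell by 4.24 after chronic UVB (adjusted p = 0.000241, limma) and fell by 6.38 after acute UVB (adjusted p = 2.79e-07) in iNZM, and in WT fell by 4.26 after chronic UVB (adjusted p = 6.83e-05) and fell by 4.15 after acute UVB (adjusted p = 0.000114). The neighbouring unprocessed pseudogene Mrgprb11-ps (chr7:48684621-48685614, minus strand) varied with it over the libraries. In unexposed skin their strain order was opposite. The mean of Mrgprb11-ps was 564 in iNZM and 1163 in WT, and that of Mrgprb3 was 812 in iNZM and 469 in WT. Reads may be split between such related copies, so the level of Mrgprb3 is uncertain to that extent.

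Il12rb2, the interleukin-12 receptor chain, had 8.32 to 61.8 normalised reads after chronic UVB, 2.20 to 24.6 after acute UVB and 185 to 312 without UVB in iNZM. In WT it had 2.0 to 25.0 after chronic UVB, 4.34 to 14.6 after acute UVB and 128 to 210.0 without UVB. The groups with and without UVB did not overlap. Il12rb2 fell by 3.0 after chronic UVB (adjusted p = 0.00179, limma) and fell by 4.5 after acute UVB (adjusted p = 8.53e-06) in iNZM, and in WT fell by 4.46 after chronic UVB (adjusted p = 5.11e-06) and fell by 4.16 after acute UVB (adjusted p = 1.64e-05). After chronic UVB its level in iNZM lay above that in WT by 1.82 ± 0.64 (SE, adjusted p = 0.05 after rounding), a call just under the threshold that was lost without any of 7 libraries (chronic 22, 23, 25 and 57 of iNZM and chronic 28, 58 and 59 of WT, adjusted p between 0.058 and 0.142). It was also lost in edgeR (adjusted p = 0.0641) and, with adjusted p between 0.0557 and 0.155, with a pseudocount of 8, no filter, only the groups compared or library number as covariate.

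Mccc1os stood out by its strain difference in unexposed skin. In iNZM it had 0, 1.16, 6.24, 9.99 and 29.6 normalised reads after chronic UVB, 0, 1.10, 1.68, 7.71 and 8.08 after acute UVB, and 44.7, 78.8, 123 and 128 without UVB. WT skin had 0, 0, 1.07, 2.99 and 3.27 after chronic UVB, 0, 0, 1.73, 2.91 and 4.67 after acute UVB, and 0.916, 3.97, 4.64 and 6.92 without UVB. Unexposed iNZM skin was above every WT library of any regimen, and the WT values came from few reads, 17 in all in the 4 unexposed libraries.

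Without UVB, Mccc1os was higher in iNZM than in WT by 4.27 ± 0.78 on the log2 scale (SE, adjusted p = 0.000162, limma). It was the only one of the 8 genes called in that comparison, in which 5.84% of all genes were higher and 3.94% lower. Clca1, at 2.88 ± 0.99, missed the threshold there (adjusted p = 0.0575), and edgeR (adjusted p = 0.0361) and DESeq2 (adjusted p = 0.0166) called it higher in iNZM. Mccc1os fell by 3.98 after chronic UVB (adjusted p = 0.000291) and fell by 4.69 after acute UVB (adjusted p = 1.69e-05) in iNZM. In WT the difference was -1.16 after chronic UVB (adjusted p = 0.228) and -1.0 after acute UVB (adjusted p = 0.383). After chronic UVB the level in NZM, at 5.37, 5.71, 8.91, 15.4 and 29.3, was higher than that in WT by 2.51 ± 0.70 (adjusted p = 0.0191). That call was lost without NZM chronic 54 (adjusted p = 0.0582) or 55 (adjusted p = 0.0525), or without WT chronic 27 (adjusted p = 0.0628) or 29 (adjusted p = 0.0653), and with the hair score, the mean level of hair genes described below, as covariate (adjusted p = 0.057). Mccc1os was the 1 gene called of the 7 read in that comparison, where 4.29% of all genes were higher and 3.59% lower.

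Mccc1, which shares 846 bases with Mccc1os on the opposite strand, was not called after UVB in either strain. Levels of Ccdc144b, which shares 17863 bases, are not given here, so the values below do not cover it. The log2 difference of Mccc1 in iNZM was 0.33 after chronic UVB (adjusted p = 0.154, limma) and -0.35 after acute UVB (adjusted p = 0.142). In WT that of Mccc1 was -0.41 (adjusted p = 0.0629) and -0.43 (adjusted p = 0.0781) after the same regimens. Without UVB Mccc1 was lower in iNZM than in WT by a log2 difference of -0.67 ± 0.19 (adjusted p = 0.0147), the opposite direction to Mccc1os.

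**Figure D2:**
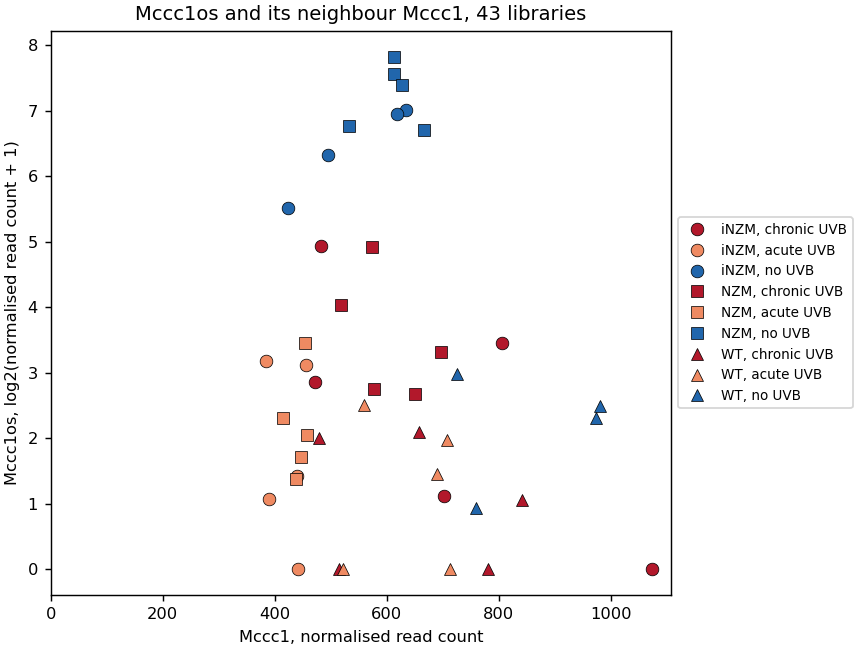
Normalised read counts of Mccc1os, as log2(value + 1), against those of the overlapping gene Mccc1, untransformed, in every library, by strain and regimen. Mccc1os reaches 44.7 to 128 normalised reads in unexposed iNZM skin and 0.916 to 6.92 in unexposed WT skin, and Mccc1 lies between 385 and 1073 in all libraries.

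Akr1d1 was close to undetected in skin without UVB and after acute UVB and was present after chronic UVB in every library of every strain. In iNZM it had 29.1, 35.6, 40.9, 109 and 311 normalised reads after chronic UVB, 0 in 4 libraries and 1.93 in the other after acute UVB, and 0, 0, 2.09 and 3.30 without UVB. The WT libraries held 165, 602, 716, 852 and 852 after chronic UVB, 0 in 4 libraries and 4.67 in the other after acute UVB, and 0, 0, 1.59 and 6.96 without UVB. The lowest chronic library of either strain was far above the highest library of the other regimens.

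Akr1d1 rose after chronic UVB against no UVB by 5.18 in iNZM (adjusted p = 3.19e-05, limma) and by 8.02 ± 0.80 (SE) in WT (adjusted p = 2.77e-09), a WT difference that ranked 4 from the highest of all 19170 genes. As a ratio of means the rise was 78.1-fold in iNZM and 298-fold in WT, against unexposed groups that held 6 reads in all in iNZM and 8 in WT, so the size of the fold rests on very few reads. Against acute UVB, Akr1d1 was higher after chronic UVB by 5.8 ± 0.75 in iNZM (adjusted p = 6.87e-06) and by 8.61 ± 0.75 in WT (adjusted p = 9.57e-11). After acute UVB the difference from no UVB was -0.62 in iNZM (adjusted p = 0.591) and -0.59 in WT (adjusted p = 0.674), with 2 reads in all in the acute iNZM libraries and 4 in those of WT, so a change was not detectable at this depth.

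After chronic UVB the level of Akr1d1 was lower in iNZM than in WT by a log2 difference of -3.0 ± 0.75 (adjusted p = 0.0053, limma), although the highest iNZM library (311) overlapped the lowest WT library (165). DESeq2 on the recovered reads gave -2.6 with an adjusted p of 0.0559. The difference between the chronic responses of the strains was -2.84 ± 1.13 and did not pass the test (adjusted p = 0.142). In NZM, whose chronic libraries chose the gene, Akr1d1 had 10.0, 167, 212, 231 and 340.0 after chronic UVB, 0 in 4 libraries and 3.12 in the other after acute UVB, and 0, 0, 1.00, 1.17 and 1.94 without UVB. Its rank by log2 difference in that choosing contrast was 96 from the highest of 19170, whereas the 7 lost genes ranked between 1 (Pyy) and 15 (Il12rb2) from the lowest after acute UVB in NZM. The choice stated no threshold.

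**Figure D3:**
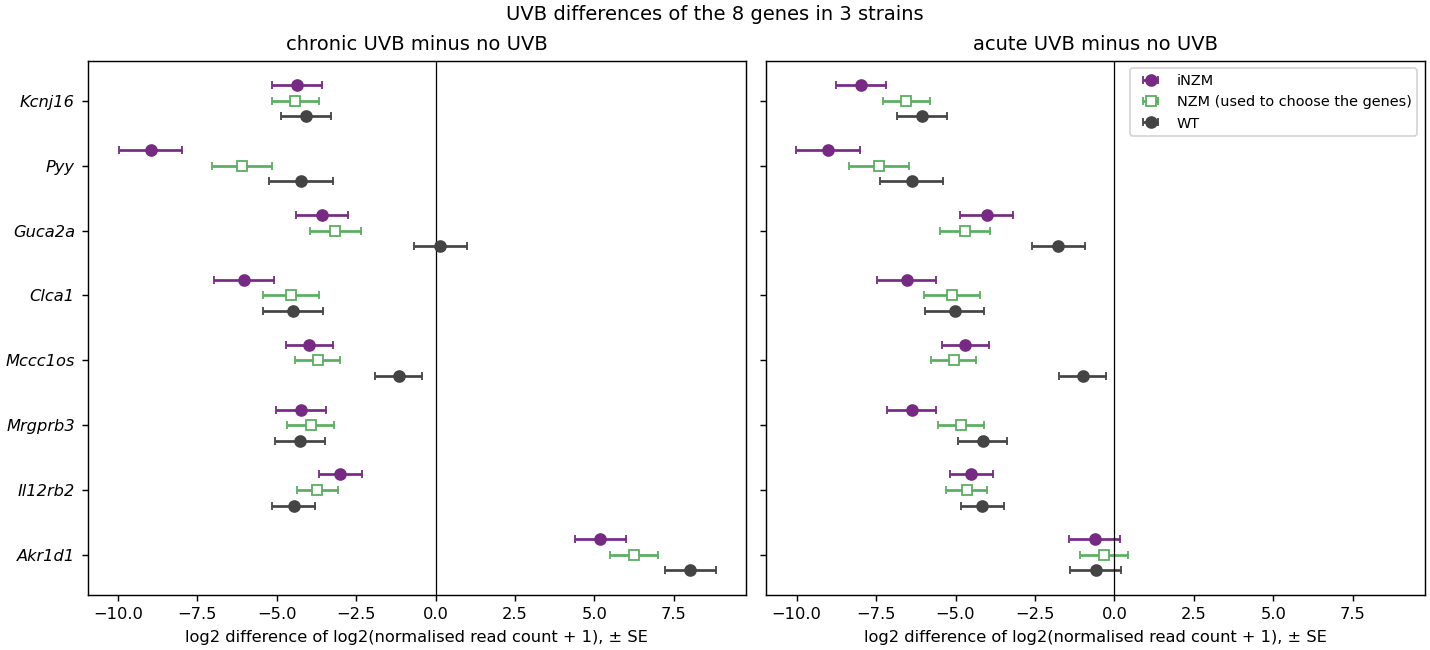
Log2 differences, on the log2(value + 1) scale, of UVB against no UVB for the 8 genes in iNZM, NZM and WT, with standard errors as bars. The 7 lost genes lie below 0 in iNZM and NZM under both regimens, Guca2a reaches 0.15 in WT after chronic UVB, and Akr1d1 lies at 5.18, 6.24 and 8.02 after chronic UVB in iNZM, NZM and WT. The NZM points chose the genes, after acute UVB for the lost genes and after chronic UVB for Akr1d1, and carry no test.

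In NZM the log2 differences after chronic UVB ran between -6.1 (Pyy) and -3.15 (Guca2a) for the lost genes, and after acute UVB between -7.4 (Pyy) and -4.65 (Il12rb2). These values share the unexposed NZM libraries with the choice of genes and are given as a description, beside a background of 9.78% of all genes lower and 9.2% higher after chronic UVB and of 10.7% lower and 10.6% higher after acute UVB. Between chronic and acute UVB in NZM, where 3.76% of all genes were lower and 3.79% higher, the log2 difference was 2.14 for Kcnj16 and 6.56 for Akr1d1.

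Between strains after UVB, few of the genes were called. After acute UVB none of the 8 passed the test between iNZM and WT by limma, none had an unadjusted p under 0.05, and edgeR and DESeq2 also called 0, while 12.5% of all genes were lower and 12.2% higher in iNZM. After chronic UVB 2 of the 8 (Guca2a and Akr1d1) were lower and 1 (Il12rb2) higher in iNZM than in WT, against 8.43% lower and 6.12% higher of all genes. Between iNZM and NZM after chronic UVB limma called 0 of the 7 genes that could be read, with 0 at an unadjusted p under 0.05 and 0 by edgeR or DESeq2, where 0.412% of all genes were lower and 0.0156% higher in iNZM. Akr1d1 after acute UVB did not pass the test in NZM against WT or in iNZM against NZM, with 0 calls by edgeR or DESeq2, an unadjusted p above 0.05 in both, and a background of 5.08% lower and 7.96% higher genes in NZM against WT and of 0.219% lower and 0.00522% higher genes in iNZM against NZM. The difference between the acute responses of iNZM and WT was called for 0 of the 8 by limma, edgeR and DESeq2, with 1 at an unadjusted p under 0.05. That gene was Mccc1os, at -3.69 ± 1.05 with an adjusted p of 0.123, and 0.261% of all genes passed in that direction and 0.11% in the other.

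Per kilobase of exon, which allows levels of different genes to be set side by side, Pyy was the most abundant of the 8 in unexposed skin of iNZM, with a mean of 1990.0 normalised reads per kilobase, followed by Mrgprb3 with 804, and these 2 were also the highest in NZM (963 and 860.0). In unexposed WT skin Mrgprb3 had 464 and Pyy 416. These neighbours in the order did not differ beyond the spread of Pyy among libraries. Kcnj16 had 219 per kilobase in iNZM, 219 in NZM and 108 in WT, Clca1 had 212, 145 and 29.3, and Guca2a had 156, 427 and 80.4. Il12rb2 had 61, 87.6 and 47.0, which put it below Clca1 in iNZM and NZM and above it in WT. Mccc1os (12.6, 21.2 and 0.553) and Akr1d1 (0.465, 0.284 and 0.739) were the lowest of the 8 in every strain. After chronic UVB, Akr1d1 was the highest of the 8 in WT at 220.0 per kilobase, against 108 for Guca2a.

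Over all 43 libraries, which share the UVB groups and include the NZM libraries that chose the genes, Pearson's r between pairs of the 7 lost genes on log2 values ran between 0.556 (Guca2a and Mccc1os) and 0.920 (Kcnj16 and Il12rb2). The r of deviations from the group means was lower in every pair and ran between 0.073 and 0.757 for the same pairs of genes. Akr1d1 had r between -0.288 and 0.059 with the others. The genes outside the list with the highest r, named by a rule of 3 per gene, were Lce1m (0.947), Clca3a2 (0.936) and Otud1 (0.931) for Kcnj16, Kctd12 (0.891) and Il34 (0.887) beside an unnamed transcript model for Pyy, and Pkib (0.943), Sema3d (0.934) and Mrgprb11-ps (0.931) for Mrgprb3. Clca1 came with Fcgbp (0.918), Ust (0.909) and Cd3e (0.899), and Il12rb2 with Rgmb (0.916), Fcgbp (0.906) and Pkib (0.898). The values for Guca2a were lower, with Slc2a5 (0.852) and Cd109 (0.825) named beside a transcript model. So were those of Mccc1os, with Il5ra (0.864) and Scn2b (0.838) beside another transcript model. Akr1d1 came with a transcript model (0.952), Nmu (0.933) and Rps6kb2 (0.912). For every one of these genes the r of deviations from the group means was lower. It ran between 0.335, for the transcript model beside Mccc1os, and 0.867, for Mrgprb11-ps beside Mrgprb3. For Nmu beside Akr1d1 it was 0.466, and for Il34 beside Pyy 0.385. These are descriptions over libraries that share treatment groups, and no p is given.

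Among these genes, Lce1m, which encodes a protein of the late cornified envelope, had 2321 to 7994 normalised reads after chronic UVB, 74.2 to 640.0 after acute UVB and 27461 to 42065 without UVB in iNZM. Fcgbp, which encodes a protein found in mucus, had 863 to 4673, 146 to 2710.0 and 39149 to 66185 in the same order of regimens. In iNZM both were ordered chronic above acute and unexposed above both in their medians, as Kcnj16 was. In NZM the median of Fcgbp was lower after chronic (1079) than after acute UVB (1523). Nmu, which encodes the peptide neuromedin U, had 20.3 to 84.8 after chronic UVB in WT, 0 to 1.02 after acute UVB, and was at 0 in all 4 unexposed WT libraries.

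The relatives and pathway partners of these genes were counted from lists, and each count is read against the background percentages above. The median log2 difference of all 19170 genes was 0.02 after chronic and 0 after acute UVB in iNZM, and 0.03 after chronic and 0 after acute UVB in WT. Of 6 tested inward rectifier channel genes other than Kcnj16, 3 fell after chronic and 1 after acute UVB in iNZM, and 4 fell after chronic and 0 after acute UVB in WT, with none higher. Kcnj2 differed by -1.46 after chronic UVB (adjusted p = 0.00324, limma) and -1.43 after acute UVB (adjusted p = 0.00282) in iNZM, and by -1.66 after chronic UVB in WT (adjusted p = 0.000443). Kcnj8, which encodes a pore subunit of ATP-sensitive potassium channels, differed by -2.15 (adjusted p = 0.0082) in iNZM and -2.23 (adjusted p = 0.00361) in WT after chronic UVB. The median log2 difference of these 6 genes was -1.34 after chronic and -1.09 after acute UVB in iNZM, and -1.64 after chronic and -0.35 after acute UVB in WT. Of the partners of Kir5.1, Kcnj15 was present at 337 to 1581 normalised reads in all libraries and did not pass the test in iNZM or WT, whereas Kcnj10 had 9.29 or fewer in any library.

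The neuropeptide Y list had 4 tested genes: Npy, the receptors Npy1r and Npy4r, and Dpp4, which is neither a family member nor a receptor. None passed after acute UVB in either strain. After chronic UVB 2 fell and 1 rose in iNZM, and 1 fell in WT. Npy1r, a receptor of the family, fell by 2.07 in iNZM (adjusted p = 0.0106, limma) and fell by 3.25 in WT (adjusted p = 6.91e-05), and Npy, which encodes neuropeptide Y itself, rose by 3.29 in iNZM (adjusted p = 0.0383). These 4 genes had a median log2 difference of -0.74 after chronic and 0.36 after acute UVB in iNZM, and -0.59 after chronic and -1.12 after acute UVB in WT. In the guanylin list of 8 genes, the receptor Gucy2c rose by 2.28 after acute UVB in iNZM (adjusted p = 0.0419) at 39.2 normalised reads or fewer in any library. Prkg2, a cGMP-dependent kinase, rose by 2.26 after chronic UVB (adjusted p = 0.00203) and by 2.26 after acute UVB (adjusted p = 0.00138) in iNZM. Guca2b, which encodes the related peptide uroguanylin, rose by 3.15 ± 0.80 after chronic UVB in WT (adjusted p = 0.00258), at 17.4 normalised reads or fewer in any library. The guanylin list had a median of -0.13 after chronic and -0.36 after acute UVB in iNZM, and -0.06 after chronic and 0.09 after acute UVB in WT. In that list 1 gene rose after chronic and 2 after acute UVB in iNZM, and in WT 1 rose and 1 fell after chronic and 1 rose after acute UVB.

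The Clca list had 4 tested genes: Clca2, Clca3a1, Clca3a2 and Ano1, which is not a Clca gene. Of these, 3 fell after chronic and 3 after acute UVB in iNZM. In WT 1 rose after chronic and 3 fell after acute UVB. Clca3a2 fell by 3.57 after chronic UVB (adjusted p = 8.5e-05, limma) and fell by 5.33 after acute UVB (adjusted p = 6.03e-08) in iNZM, and fell by 3.83 after acute UVB in WT (adjusted p = 8.56e-06). Clca3a1 rose by 1.54 after chronic UVB in WT (adjusted p = 0.0321). The Clca list had a median of -1.79 after chronic and -2.35 after acute UVB in iNZM, and -0.20 after chronic and -1.41 after acute UVB in WT. Clca3a1 and Clca3a2 are close paralogs on chromosome 3, and reads may be split between them. Of 10 leucine breakdown genes including Mccc1, 2 rose and 1 fell after chronic and 2 fell after acute UVB in iNZM, and in WT 2 fell after chronic and 1 after acute UVB. The leucine list had a median of 0.33 after chronic and -0.34 after acute UVB in iNZM, and -0.18 after chronic and -0.13 after acute UVB in WT. Ivd, which encodes an enzyme of the same pathway, fell in all 4 comparisons, with log2 differences of -0.49 in iNZM and -1.1 in WT after chronic UVB, and of -0.54 in iNZM and -0.68 in WT after acute UVB (adjusted p under 0.05).

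Of 10 other tested Mas-related receptor genes, 2 fell after chronic and 1 after acute UVB in iNZM, and in WT 1 fell after chronic while 1 fell and 1 rose after acute UVB. Mrgprb2, the mast cell receptor of the family, differed by -1.5 after chronic UVB (adjusted p = 0.0474, limma) and -1.78 after acute UVB (adjusted p = 0.0214) in iNZM, and by -2.28 (adjusted p = 0.00244) and -1.62 (adjusted p = 0.0397) after the same regimens in WT. Mrgpra2b rose by 4.87 after acute UVB in WT (adjusted p = 1.48e-07). The receptor list had a median of -1.23 after chronic and -0.24 after acute UVB in iNZM, and -0.55 after chronic and -0.05 after acute UVB in WT. Of the 10 mast cell markers, 7 fell after chronic UVB in iNZM and 1 rose after acute UVB in iNZM, and in WT 1 rose after either regimen. Their part in the Mrgprb3 result was not tested.

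In the interleukin-12 pathway 16 genes were tested besides Il12rb2. After chronic UVB 11 fell and none rose in iNZM, and 4 fell and 3 rose in WT. After acute UVB 4 fell and none rose in iNZM, and 2 fell and 2 rose in WT. Il18r1, a receptor chain for interleukin-18, fell by 2.56 after chronic UVB in iNZM (adjusted p = 6.16e-05, limma), and Il12b, which encodes a chain of interleukin-12, fell by 3.61 (adjusted p = 0.00168). Il12rb1, the partner chain of Il12rb2, rose by 1.32 after chronic UVB in WT (adjusted p = 0.00401), in contrast to Il12rb2 in the same comparison. Stat4 had 15.4 normalised reads or fewer in any library. The pathway had a median log2 difference of -1.74 after chronic and -0.56 after acute UVB in iNZM, and 0 after chronic and 0.03 after acute UVB in WT. Of 16 T and NK cell markers, 15 fell after chronic and 10 after acute UVB in iNZM, and 6 and 5 fell after the same regimens in WT. Their summed level was 660.0 to 1816 after chronic UVB, 1317 to 4075 after acute UVB and 4162 to 4756 without UVB in iNZM, and 818 to 1874, 1610.0 to 6012 and 1537 to 6099 in WT. The sums rest largely on Thy1, with a median of 1785 normalised reads over the libraries, against 63.3 for Cd3e. In WT the sums overlapped between acute and no UVB, while Cd3e, at 25.4 to 57.0 against 82.4 to 271, did not. The part of these cells in the Il12rb2 result was not tested.

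In the list of 20 aldo-keto reductases and steroid enzymes besides Akr1d1, 2 rose and 7 fell after chronic UVB in iNZM, and 6 rose and 5 fell in WT. After acute UVB 1 rose and 3 fell in iNZM, and 2 rose and 1 fell in WT. The related reductase gene Akr1c14 moved opposite to Akr1d1 after chronic UVB and fell by 2.61 in iNZM (adjusted p = 0.000919, limma) and fell by 2.72 in WT (adjusted p = 0.000219). Akr1c18, which encodes the enzyme that inactivates progesterone, fell by 1.84 in iNZM (adjusted p = 0.00294). In WT, Hsd17b2, which encodes an enzyme that inactivates oestradiol and testosterone, rose by 2.43 (adjusted p = 1.08e-06) and Cyp17a1 by 2.18 (adjusted p = 0.00129). The list had a median log2 difference of -0.25 after chronic and -0.44 after acute UVB in iNZM, and -0.23 after chronic and -0.07 after acute UVB in WT. Summed hepatocyte markers were at 65.3 normalised reads or fewer in every library after chronic UVB, with 16 to 65.3 in WT against 72.2 to 291 in WT without UVB. Their part in the Akr1d1 result was not tested.

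**Figure D4:**
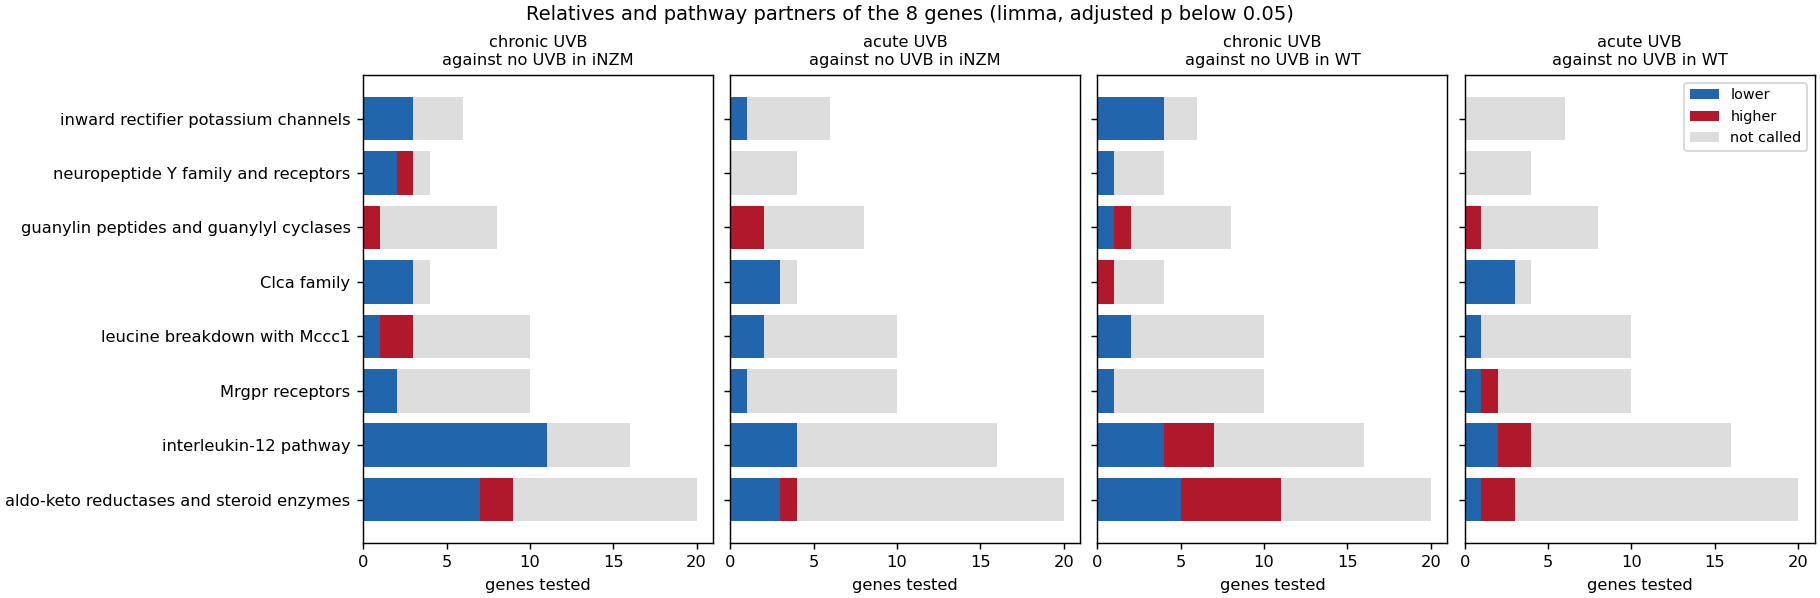
Number of genes called lower and higher (limma, adjusted p under 0.05) in each list of relatives and pathway partners, for UVB against no UVB in iNZM and WT. The interleukin-12 list has 11 lower and 0 higher genes after chronic UVB in iNZM, and 4 lower and 3 higher in WT.

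Markers of the intestinal epithelium were mostly scarce in the libraries. Of 10 intestinal epithelium genes 6 were in the table, and Vil1 (7.21 or fewer), Isx (7.30 or fewer) and Muc2 (8.82 or fewer normalised reads in any library) were near 0, while Lgals4 had 16.9 to 678. Of the 3 tested, Cdh17, at 21.1 normalised reads or fewer in any library, fell in all 4 comparisons of UVB with no UVB in iNZM and WT, Lgals4 rose by 3.01 after chronic UVB in WT (adjusted p = 5.87e-06, limma), and Slc26a3 was not called. Their part in the values of Pyy, Guca2a and Clca1 was not tested. Of 8 tested enteroendocrine and Merkel cell genes none fell in iNZM or WT under either regimen, and 1 rose after chronic UVB in each strain. Several of them were not scarce, with medians over all libraries of 75.1 for Chga, 47.9 for Cck and 128 for Isl1. Krt20 (9.12) and Sct (1.0) had lower medians, and Chgb, which was not tested, had 6.97 or fewer in any library. Their part in the values of Pyy was not tested. Suprabasal keratinocyte markers did move with the acute values: 7 of 8 fell after acute UVB in iNZM and 6 of 8 in WT, with sums of 9800.0 to 146023 after acute UVB and 384589 to 762864 without UVB in iNZM. After chronic UVB 1 of the 8 fell and 1 rose in iNZM, and 1 fell and 4 rose in WT. Their part in the values of the 8 genes was not tested. The summed basal keratinocyte markers, which define the labelled tissue, lay between 153543 and 801808 in all libraries.

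In 9 libraries the hair shaft and root sheath genes stood far above the rest, with a mean centred log2 level over 28 such genes above 5. They were 3 chronic and 2 acute iNZM libraries, 3 chronic and 1 acute NZM libraries and no WT library. Among the NZM chronic libraries the 3 with high hair genes held less of the lost genes than the other 2, apart from Mccc1os, which overlapped. Kcnj16 had 10.9 to 24.7 against 100.0 to 153, Clca1 2.69 to 11.6 against 53.5 to 175 and Mrgprb3 14.9 to 35.5 against 129 to 243. The gained gene Akr1d1 was also lower in the 3, at 10.0 to 212 against 231 to 340.0. The share of all genes apart in this way was not computed. The split is 3 against 2 libraries, and these NZM chronic libraries also chose Akr1d1, so no result is read from it. In iNZM the corresponding ranges overlapped for all of these genes. For Kcnj16 they were 20.8 to 61.8 in the 3 libraries with high hair genes and 31.2 to 84.4 in the other 2. Without these 9 libraries all 7 lost genes still fell under both regimens in iNZM, and Akr1d1 still rose after chronic UVB.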

How the data were processed

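Per the submitters' processing notes, reads were aligned with STAR to mm10, counted per gene with HTSeq and scaled with DESeq2; versions, annotation, filters and strand setting are not given in the sources used here. The deposited table holds a signal that the authors made by scaling the reads of each library by its DESeq2 size factor. Dividing by the smallest step of each library gave whole reads for 100.0% of values within 0.01, with size factors between 0.6735 and 1.7503. Depth was 18.49 to 37.76 M reads per library (median 24.44 M). Sample groups came from the labels, and no 2 replicates agreed within sampling noise (lowest chi-square per gene 16.9).

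The 19170 genes reaching 10 in 4 or more libraries entered a fit over all 43 libraries, on log2(value + 1) and with a mean for each of the 9 groups (limma 3.58.1, trend, two-sided; Benjamini-Hochberg over all of them; threshold 0.05; R 4.3.3). Fold changes on this scale understate changes of low genes. Count models on the recovered reads (edgeR 4.0.16, DESeq2 1.42.0) served as alternatives: after chronic UVB in iNZM, limma called 3013 genes lower and 2520 higher, edgeR 2373 and 2882, and DESeq2 2663 and 3381. Others were pseudocounts of 0.5 and 8, other filters, scalings, covariates and leaving out each library. Scripts were tested on simulated data. The genes, the lists and the tests were chosen with earlier results of these data known. Genes named besides the 8 were the 3 of highest Pearson r to each, up to 4 called genes per pathway list by adjusted p, and near relatives. In contrasts that chose a gene, no test is given. Lgals4, Cdh17 and Slc26a3 were named after their values were seen.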

Additional observations from a re-analysis of the deposited data

Results flagged for a closer look

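In 10 of 72 groups of values, 1 library stood apart from the rest of its group by Dixon's 95% criterion. For normally distributed values chance alone meets it in about 1 group in 20. Counts near 0 are not so distributed, and where 4 libraries are at 0 any reads in the fifth meet it. The 10 groups therefore cannot be set against that rate. For Pyy they were NZM chronic library 54 with 36.9 normalised reads and NZM acute library 47 with 43.8, where the other 4 acute libraries were at 0. For Clca1 they were iNZM acute library 10 with 32.8 and WT chronic library 29 with 21.6. Mccc1os had 10.0 in NZM acute library 47, which was also the high library for Pyy. Mrgprb3 had 180.0 in iNZM chronic library 25. Akr1d1 had 311 in iNZM chronic library 22. The remaining groups were the acute groups of Akr1d1, in which 4 libraries were at 0 and the fifth held 1.93 (iNZM library 6, 2 reads), 3.12 (NZM library 5, 4 reads) or 4.67 (WT library 50, 4 reads).

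The chronic response of Pyy differed between iNZM and WT by -4.74 on the log2 scale (interaction term, adjusted p = 0.045, limma), with means after chronic UVB of 0.162% of the unexposed mean in iNZM and 5.55% in WT. Unexposed levels were 414 to 2690 in iNZM and 104 to 436 in WT, so they overlapped only between 414 and 436. Without UVB iNZM lay above WT by 2.19 ± 1.05 (SE), which was not called (adjusted p = 0.21, limma). After chronic UVB iNZM differed from WT by -2.55 (adjusted p = 0.0622, limma), with 3 iNZM libraries at 0. Neither edgeR nor DESeq2 called Pyy in the interaction.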

How the results depend on the processing

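The falls of the 7 genes and the rise of Akr1d1 in iNZM kept their direction and call in all 168 recomputed values after chronic and all 168 after acute UVB, over 12 alternatives and each library left out. In WT 165 of 168 did so under each regimen, and the number of genes called lower after acute UVB, 5 with any library left out, was 6 by DESeq2 and with only the groups compared. Only values not called changed sign: Guca2a after chronic UVB in WT, which ranged over -0.21 to 0.63 with 1 library left out, was -0.02 without chronic library 58, -0.21 without chronic library 29 and -0.12 without no UVB library 45, and Akr1d1 after acute UVB in WT, which ranged over -1.09 to 0.04, was 0.04 without no UVB library 41.

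Calls between strains and between regimens depended on the settings, and the cause was not tested. Of the 8 genes, the number with a lower chronic response in iNZM than in WT (1) became 0 with a pseudocount of 0.5, no filter or the hair score as covariate, 2 with library number (46 or above) as covariate, 3 without the 9 libraries of high hair score and 4 with a pseudocount of 8. It was 1 by edgeR and by DESeq2, with Guca2a in place of Pyy. The 13 libraries numbered 46 or above were all exposed to UVB, so the number covariate cannot be fully separated from UVB. The labels do not state what the numbering reflects. A lower acute response in iNZM (0 genes) was called for 1 with a pseudocount of 8 or without the high-hair libraries. Without UVB, 1 gene was higher in iNZM than in WT, against 2 with the hair covariate, without the high-hair libraries, by edgeR or by DESeq2, and 3 with a pseudocount of 8 or a fit on only the groups compared. After chronic UVB, the count higher in iNZM than in WT (1) was 0 with a pseudocount of 8, no filter, only the groups compared or the number covariate, and 2 with the hair covariate or DESeq2, and the count lower (2) was 1 with only the groups compared, the hair covariate or DESeq2 and 3 without the high-hair libraries. The count higher in NZM than in WT after chronic UVB (1) was 2 with the hair covariate or edgeR, 3 by DESeq2 and 4 without the high-hair libraries. The count higher after chronic than after acute UVB (2) was in WT 1 with quantile scaling and 3 by DESeq2, with a filter at 50, with only the groups compared or without the high-hair libraries, and 1 in iNZM with only the groups compared and 3 by edgeR, DESeq2 or with the hair covariate. With 1 library left out, these counts ranged over 0 to 2 (chronic response lower), 1 to 3 and 0 to 1 (iNZM against WT after chronic UVB, lower and higher), 0 to 2 (NZM against WT) and 1 to 4 in WT and 2 to 3 in iNZM (chronic against acute).

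No paired analysis was possible because every library carries its own number. Of 1512 values recomputed, 1410 kept direction and call. A further 59 differences of these genes are not given in the text, 0 of them past the threshold, a choice made after the values were seen; 92 of their 1384 recomputed values changed sign. By edgeR the genes of the whole table after chronic UVB in iNZM against WT split into 1273 lower and 1550.0 higher, against 1616 and 1173 by limma. In that comparison edgeR called Mccc1os higher (2.6, adjusted p = 0.0424) and not Il12rb2, and DESeq2 called both. Levels of a few reads, as of Akr1d1 without UVB, limit what the depth can show.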
